A study of Mus musculus with 6 samples.

Results

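Clusters of CAGE tags that start inside internal and last exons of protein-coding genes, away from every annotated 5′ end, were examined in embryonic stem cells (mESCs) and in oligodendrocyte progenitors (mOPCs) of the mouse. CAGE sequences a short tag from the 5′ end of capped RNA, so a tag marks the position where a captured RNA begins. The tags of 6 libraries were pooled, positions with at least 30 tags were kept, and neighbouring positions on the same strand up to 20 bp apart were joined. A cluster was included when it held at least 100 pooled tags, overlapped an exon of a protein-coding gene on the same strand and lay more than 500 bp from any annotated 5′ end on that strand. Of 31147 clusters of at least 100 tags, 607 in 399 genes met these limits. They comprised 405 in internal exons, 182 in last exons and 20 that were internal in one transcript and last in another. These pooled counts chose the clusters, so their presence and size are a description and not a finding.

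The libraries were made from nuclear RNA of the feeder-free male line R08 (3 mESC libraries) and of oli-neu (3 mOPC libraries), both without any treatment that differs within a line. Oli-neu is an established line derived from mouse oligodendrocyte progenitors and grown with growth factors and thyroid hormones, so it stands for these cells only as a line. The mESC libraries held between 16657021 and 37888141 tags and the mOPC libraries between 21925299 and 40928704. All libraries of a line carry the same library label, which differs between the lines, so cell line and library preparation cannot be told apart. All 10 pluripotency markers examined were far higher in mESCs (Nanog, 121 to 125 CPM, tags per 1000000 tags of the library, against 0). Of 8 progenitor markers, Nkx2-2 was at 0 in the mOPC libraries and Pdgfra reached only 7.82 to 8.60 CPM there, against 5.41 to 5.70 in mESCs. Markers of mature oligodendrocytes were also present in the mOPC libraries (Mbp, 162 to 200 CPM).

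RNA polymerase II usually begins transcription on a purine that follows a pyrimidine, the initiator pair. Capped RNA that begins inside a gene can come from a promoter that the annotation lacks. CAGE tags within exons are also known to arise from processed RNA, and from reverse transcriptase ends at places where the cDNA did not reach the true 5′ end. A non-templated G is often added opposite the cap and can shift the mapped end by a base. The letters at the counted position are therefore given for groups of clusters and for the sequences shown. Which of these sources a cluster comes from was not tested.

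Sequence set the clusters apart into groups. At 9825 of the 23003 clusters within 500 bp of an annotated 5′ end whose letters could be read from the promoter table, the most-tagged position was a pyrimidine followed by a purine in 88.4%, at 88.4% on either strand, and a G in 5.84%. Here the counted position is called base 1, so at promoters base 1 was as a rule the pyrimidine and base 2 the initiator purine. An offset of the deposited positions by a base and an added G would give the same letters at promoters, and which of them applies was not settled, so base 1 need not be the first base of the RNA. Among the 563 exonic clusters that could be read, a pyrimidine followed by a purine was found in 201 (35.7%) and a G at base 1 in 328 (58.3%), with 34 others (6.04%). Both kinds occurred in both exon classes. A G stood at base 1 in 201 of 365 internal-exon clusters (55.1%) and in 120 of 179 last-exon clusters (67.0%). The pyrimidine-purine pair was found in 146 of the former and 45 of the latter (25.1%). Over all positions of the 451 exons that hold these clusters, 21.7% read as the pair and 23.3% as a G, so both readings were more frequent at the clusters than over their exons.

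**Figure D1:**
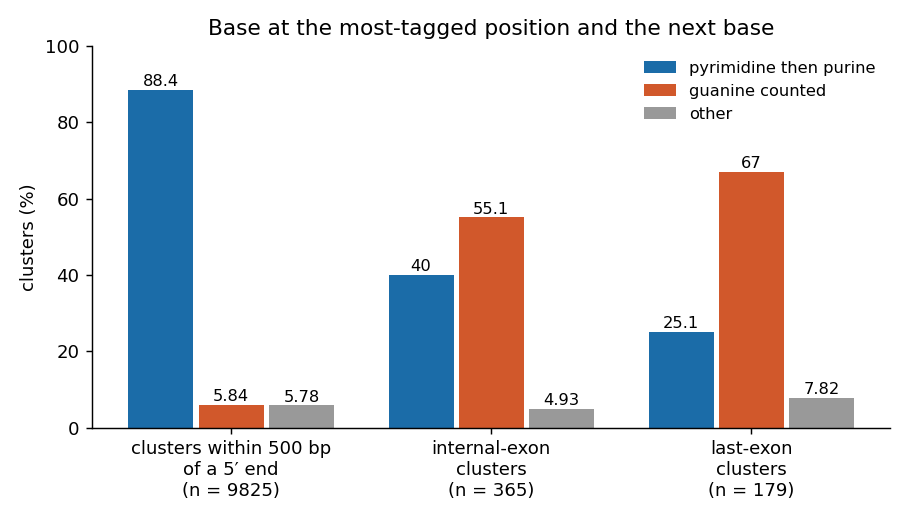
Share of clusters (%) whose most-tagged position is a pyrimidine followed by a purine, a guanine, or neither, for clusters near annotated 5′ ends, in internal exons and in last exons. Bars are percentages of the clusters whose bases could be read. The pair makes up 88.4% near 5′ ends, and guanine makes up 55.1% in internal and 67.0% in last exons.

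The run GGG on the transcript strand, ending at base 1, stood at 28.2% of internal-exon clusters and 51.4% of last-exon clusters with a readable window. The same run ended at base 1 in 2.23% of the clusters near 5′ ends. It ended at 1.55% of all positions in the exons that hold the clusters. Further along, base 5 was an A in 43.8% of exonic clusters and in 18.8% of promoter clusters. A match to these letters is a description of the position only.

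Sequences of clusters among those with the most tags or with the largest shift against their promoter show both kinds. Each is 27 bases of the GRCm38 (mm10) transcript sequence, written 5′ to 3′ in the direction of transcription, with bases 1 and 2 in capitals. The pyrimidine-purine clusters are shown first.
Syne1, internal exon, chr10:5289417-5289443, minus strand: gccgactggaggCAgtgggaagactgc
Psmc2, internal exon, chr5:21786759-21786785, plus strand: aagcgggaaaggTGctgtgtaatcacc
Nup160, internal exon, chr2:90679372-90679398, plus strand: cccttgtcccgtCAggcctcacggcga
Brd2, internal exon, chr17:34119318-34119344, minus strand: ggggctcggcggCGccatttcgcgctg
Inpp5b, internal exon, chr4:124751601-124751627, plus strand: gagaccgctcgcCGggcggcgggatga
Tbp, last exon, chr17:15527335-15527361, plus strand: gggaggcggggtCAgatctcgagctgg
Vwa1, last exon, chr4:155770352-155770378, minus strand: acccgtgctccgCAgtccatgcggccg
Stard9, last exon, chr2:120731636-120731662, plus strand: ggaagatctgccCAgccagccaggcct
Zfp773, last exon, chr7:7130729-7130755, minus strand: agtggagaaaaaCActtgtaaactaga
Notch4, last exon, chr17:34587653-34587679, plus strand: tgtctgcaggctCGcacttggtcggtg
Btbd19, last exon, chr4:117120610-117120636, minus strand: aagctcagccgcCGgatacgggaagga
Bcl7c, last exon, chr7:127662013-127662039, minus strand: ggaggagcttacTGtattggaatcggc

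The clusters with a G at base 1 follow, and Camta2 with neither reading. Msi2 holds GGG ending at base 1, and Sptbn1 and Map3k11 hold a G run that spans base 1. Wdr89 and Emb begin just after a run of A, and each is a single position.
Sptbn1, internal exon, chr11:30144118-30144144, minus strand: atgccccgcgagGGgaagctcatctct
Map3k11, internal exon, chr19:5689751-5689777, plus strand: caaagtacaaagGGaggaggaagaagg
Foxp1, internal exon, chr6:98944624-98944650, minus strand: cttacttccgacGCaatgcagccacgt
Ndufa13, internal exon, chr8:69901636-69901662, minus strand: tggccggaagttGCgggtcctgcaagt
Msi2, last exon, chr11:88343404-88343430, minus strand: ggggcagggtggGGtcattctttttca
Wdr89, last exon, chr12:75631364-75631390, minus strand: aaaaaaaaaagaGCttttcgccgccgg
Emb, last exon, chr13:117229342-117229368, plus strand: aaaaaaaaaatcGCtgcgccgccgcca
Camta2, last exon, chr11:70670004-70670030, minus strand: ctggttgtgcctCCtcttttggtctcc

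The 2 kinds of cluster had different median widths and different sizes beside their promoters. Clusters with a G at base 1 had a median width of 2 bp, and those with the pyrimidine-purine pair 17 bp. The share of a cluster in the sum of its own tags and those within 500 bp of the gene's annotated 5′ ends is called the exonic share. Pooled over the libraries, it had a median of 0.459% for the 328 clusters with a G and of 11.5% for the 201 with the pair. Over all 607 clusters the median was 0.927%. The genes behind them differed in promoter level, with a median of 37166 pooled promoter tags for clusters with a G and 2751 for those with the pair. A cluster with a G held a median of 24.4% of all tags in its exon, and a cluster with the pair 49.0%. Since a cluster needs 100 pooled tags to be included, a low exonic share could only be seen in a gene with many promoter tags.

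**Figure D2:**
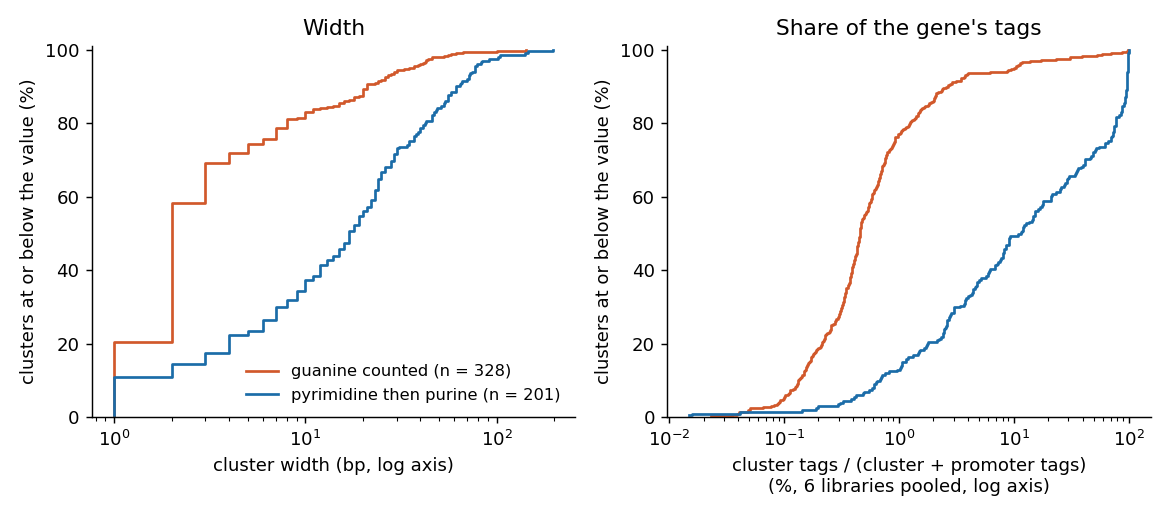
Cumulative share of clusters (%) by width (bp, left, log axis) and by exonic share of the gene's tags (%, 6 libraries pooled, right, log axis), for 328 clusters with guanine at the counted position and 201 with the pyrimidine-purine pair. The medians are 2 and 17 bp in width, and 0.459% and 11.5% in exonic share.

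Internal-exon clusters lay mostly in coding sequence (331 of 405) and last-exon clusters mostly in the 3′ UTR (110 of 182, with 40 in coding sequence). Their median distance to the nearest annotated 5′ end on the strand was 3860 bp in internal and 6242 bp in last exons. Several clusters named below lay nearer, among them Mdm4 (538 bp), Dtna (626), Matn4 (668), Brd2 (840) and Ndufa13 (887). The peak was at a median of 96 bases from the start of an internal exon of median length 217 bases. In 29 internal-exon clusters it lay within the first 10 bases. In 40 of the 607 clusters the most-tagged position fell outside the exon that the cluster overlaps. The RefSeq promoter table placed a gene start within 500 bp of only 5 clusters, those of Psmc2, Ethe1, 2310034G01Rik, Ndufa13 and Sox6. It holds no entry for the chromosome of 23 others, which could not be checked. At Psmc2 and Ethe1 the distance was 0 bp, so these clusters coincide with a RefSeq gene start that the GENCODE release used here lacks. The clusters just inside the limit of 100 tags, in Rc3h1, Dync1h1 and Prpf4b, held 100 tags each. Those just outside, a pair in Utp14b and another in Tet1, held 99.

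The members took a small part of each library. Internal-exon clusters held 0.239%, 0.187% and 0.179% of the tags in the mESC libraries, against 0.235%, 0.180% and 0.175% across mOPC libraries. The lines overlap (0.202% ± 0.033 and 0.197% ± 0.034, SD, n = 3 each, two-sided exact permutation p = 0.6). The higher value of replicate 1 in both lines came from a Foxp1 cluster that is described separately. Without it the shares were 0.182% ± 0.003 and 0.181% ± 0.007 (exact permutation p = 0.9). Last-exon clusters held 0.0447%, 0.0446% and 0.0414% in mESCs and 0.0368%, 0.0364% and 0.0372% in mOPCs. All mESC libraries lay above all mOPC libraries, and the exact permutation p of 0.1 is the smallest that 3 against 3 libraries allow.

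The part of the exonic tags in clusters with the pair depended on Syne1. Without Foxp1, these clusters held 60.01%, 60.6% and 63.0% of the tags in readable clusters in the mESC libraries, against 75.3%, 75.6% and 74.3% across mOPC libraries. Without the Syne1 gene as well, the mOPC values were 69.2%, 70.4% and 69.9%, still above the mESC libraries. As a part of all library tags, the pair clusters held 0.126%, 0.129% and 0.128% in mESCs and 0.162%, 0.158% and 0.150% in mOPCs. Without Foxp1 and Syne1 the order turned, with 0.126% to 0.129% in mESCs and 0.120% to 0.121% in mOPCs. At least 1 tag was found at 147 to 153 of the 201 in a mESC library and at 116 to 120 in a mOPC library. The median exonic share of the pair clusters was 8.47%, 8.19% and 8.36% in the mESC libraries, against 0.490%, 0.623% and 0.630% across mOPC libraries. For clusters with a G it went the other way, with 0.331%, 0.304% and 0.238% in mESCs and 0.562%, 0.482% and 0.521% in mOPCs. For both kinds the lines did not overlap. No test is given, since many clusters reached the pooled limit through 1 line, and the lines differ in how many they brought.

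The level of each cluster was compared between the lines on the tag counts of all 31147 clusters, with the quasi-likelihood test of edgeR and Benjamini-Hochberg adjustment. At an adjusted p under 0.05, 235 of the 607 exonic clusters were higher in mOPCs (38.7%) and 316 lower (52.1%). Over all clusters tested, 90.1% were called, 45.4% higher and 44.7% lower, so most clusters of any kind differed between the lines. CPM values did not overlap between the lines at 545 exonic clusters, beside 90.7% of all clusters. Of the internal-exon clusters, 138 were higher in mOPCs and 225 lower, with a median log2 change of -1.28. Of the last-exon clusters, 85 were higher and 83 lower, with a median of 0.16. The median over all 31147 clusters was 0.03. No tag was found in the mESC libraries at 79 clusters, and none in the mOPC libraries at 102. Fewer than 100 tags in at least 1 line were found at 549, and 119 of these were below 100 in both. A cluster that passed the tag limit through 1 line alone had to differ, so these counts describe the chosen clusters and support nothing about exonic starts in general. These changes are on the scale of TMM normalization, and without it every log2 change is shifted by a median of 0.34 towards mOPCs. In bulk nuclear RNA, a change in the rate of starts and a change in how long the RNA stays cannot be told apart.

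To ask whether a cluster moved with its own gene, the ratio of cluster tags to promoter tags was tested in a model over both counts of every library. It could be fitted for 562 exonic clusters in genes with at least 100 pooled promoter tags. The ratio was higher in mOPCs for 211 (37.5%) and lower for 157 (27.9%). Over all 2097 exonic and intronic clusters tested, 71.6% were called, 42.5% higher and 29.1% lower. The clusters with a G and those with the pair are given side by side, without a test between them. With a G, 143 of 326 had a higher ratio and 49 a lower one, and the median size of the log2 ratio change was 1.10. With the pair, 46 of 166 had a higher ratio and 85 a lower one, and the median size was 5.70. With clusters at 0 in a line set to the bound that 3 tags give, the medians were 1.10 and 3.87. In 148 of the 326 clusters with a G the change stayed within 1 log2 unit of the promoter's, beside 20 of the 166 with the pair. Conversely, it exceeded 3 log2 units in 45 and in 115. The tag limit favoured clusters that are high in 1 line, and so a shift against the promoter. Fewer than 100 tags in at least 1 line were found at 549 of the 607 exonic clusters. Clusters at 0 in a line were also more frequent with the pair. These counts and sizes therefore describe the chosen clusters only.

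**Figure D3:**
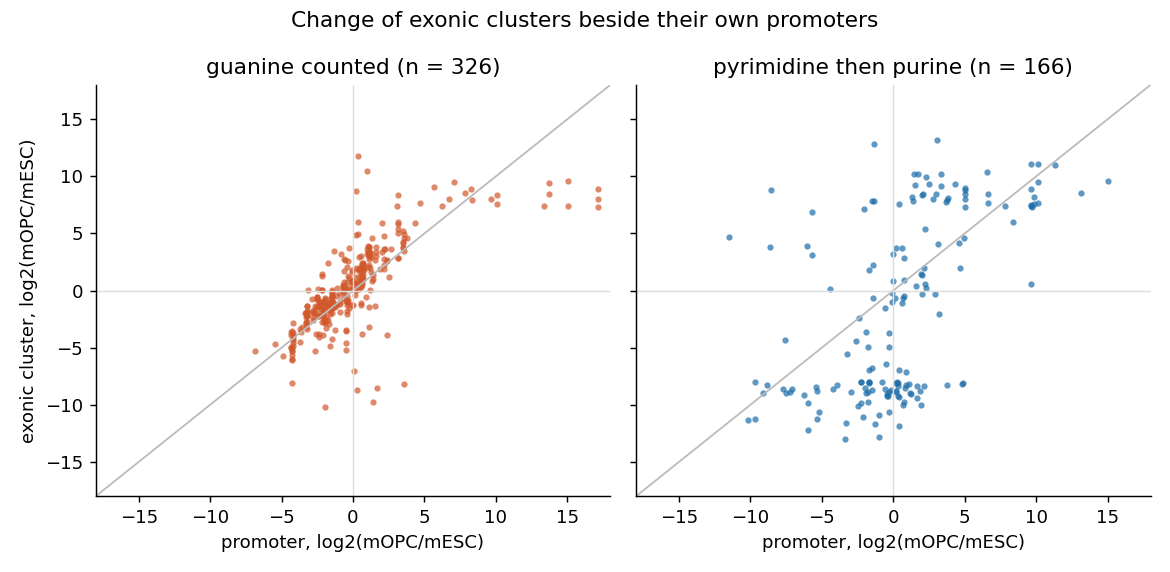
Log2 ratio of pooled tags, mOPC over mESC, at exonic clusters (vertical axis) and at the promoters of their genes (horizontal axis), for 326 clusters with guanine counted and 166 with the pyrimidine-purine pair. Points are clusters, with 0.5 tags added to each sum, so that values near the bands at the top and bottom often stand for a line at 0, and the grey diagonal marks equal change. Clusters with guanine scatter around the diagonal, with 143 called at a higher ratio and 49 at a lower one. Those with the pair gather in bands at strong loss or gain over a wide range of promoter change. Plotted values are without TMM normalization.

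Across clusters, the change of the cluster and of its promoter had a Spearman coefficient of 0.80 over the 326 clusters with a G (Pearson 0.75) and of 0.59 over the 166 with the pair (Pearson 0.56). Clusters of a gene share its promoter counts and all share the same 6 libraries, so the points are not independent and these are descriptions. Among the 201 clusters with the pair, 45 had no tag in mESCs and 78 none in mOPCs. Among the 328 with a G, these numbers were 25 and 6, and 265 had a tag in each of the 6 libraries.

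The clusters with the most tags in internal exons included genes whose annotated promoters were nearly silent in 1 or both lines. Syne1 encodes nesprin-1, a large nuclear envelope protein that links the nucleus to the cytoskeleton. Its cluster, 198 bp wide, gave 0.0264, 0 and 0.109 CPM in the mESC libraries, and 419, 366 and 292 across mOPC libraries. Only 3 mESC tags were counted in all, and the pooled ratio was 8400 (95% exact binomial interval 2874 to 40736, counting error only). The annotated promoter windows of Syne1 moved the opposite way, with 312, 151 and 182 tags in the mESC libraries, and 81, 108 and 135 across mOPC libraries. Syne1 passed the tag limit through mOPCs alone, so these values are a description. The cluster made up 98.9% to 99.1% of the gene's counted tags in mOPCs.

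Nos3, the endothelial nitric oxide synthase gene, had a cluster of the same kind. It gave 0.871, 0.781 and 0.597 CPM in mESCs and 77.9, 87.2 and 103 in mOPCs. The promoter windows held 545, 242 and 320 tags in mESCs but only 9, 10 and 8 in mOPCs. The exonic share therefore went from 3.32% to 5.71% in mESCs to 99.5% to 99.8% in mOPCs. With 57 tags in mESCs, Nos3 too passed the tag limit through mOPCs alone.

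Several housekeeping genes had most of their tags in such a cluster in both lines. Psmc2, a subunit of the proteasome, had 129, 128 and 115 CPM at the cluster in mESCs and 172, 159 and 160 in mOPCs. Its exonic share was at least 96.6% in every library, and the cluster lies at the RefSeq start noted above. Its log2 level change was 0.06 ± 0.10 (edgeR adjusted p = 0.57). This value became -0.010 without mESC replicate 3 and 0.40 without TMM, where the adjusted p was 4.2e-05. Nup160, a nuclear pore protein, gave 156, 156 and 165 CPM in mESCs and 100.9, 93.9 and 100.3 in mOPCs, with exonic shares of 98.8% to 99.4%. Ndufa13, a subunit of respiratory complex I, gave 118, 116 and 112 against 60.9, 62.3 and 59.4, with an exonic share of at least 99.4%. For both genes the lines did not overlap, and the log2 level fell by 1.03 ± 0.10 at Nup160 and by 1.26 ± 0.10 at Ndufa13 (edgeR adjusted p = 7.1e-16 and 1.0e-19). The promoter windows of Ndufa13 held too few tags for the ratio to be tested.

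Brd2 and Dtna used both kinds of start. Brd2, a reader of acetylated histones, had an exonic share of 66.5%, 69.9% and 68.1% in mESCs and of 42.8% to 47.6% in mOPCs. Its ratio fell by 1.38 ± 0.22 on the log2 scale (edgeR adjusted p = 7.5e-06). Dtna, which encodes a member of the dystrophin-associated complex, went from 35.5, 35.8 and 39.3 CPM in mESCs to 143, 155 and 132 in mOPCs. Its promoter rose by more, so the exonic share was 98.5% to 99.0% in mESCs and 91.8% to 93.2% in mOPCs (log2 ratio -2.70 ± 0.23, edgeR adjusted p = 7.3e-10). The Dtna ratio rests on only 14, 7 and 11 promoter tags in the mESC libraries, beside 229, 333 and 484 across mOPC libraries. Prdm2, a zinc-finger methyltransferase whose exon is internal or last by transcript, had an exonic share of 63.1% to 65.7% in mESCs and 75.7% to 77.8% in mOPCs.

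Foxp1, a forkhead transcription factor gene, held the cluster with the most tags, and the libraries of a line did not agree on it. It spans 2 positions with 21625, 215 and 27 tags in mESC libraries 1 to 3 and 10442, 22 and 29 in the mOPC libraries. These are 571, 12.9 and 1.46 CPM in mESCs and 476, 0.763 and 0.709 in mOPCs. Replicate 1 was thus high in both lines and the others were low, while the promoter tags of Foxp1 showed no such step (1405, 724 and 805 in mESCs). No difference between the lines was called (log2 -0.73 ± 2.99, edgeR adjusted p = 0.83), and without mESC replicate 1 the estimate was 4.19. Of all 31147 clusters, 5 exceeded the other replicates more than 3-fold in replicate 1 of both lines. The other 4 lie outside exons of coding genes.

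In last exons, Tbp, the gene of the TATA-binding protein, held the largest cluster. It gave 3.99, 3.48 and 3.20 CPM in mESCs and 34.2, 32.5 and 36.3 in mOPCs, without overlap. Tbp promoter tags did not follow, and the exonic share went from 2.83% to 3.01% up to 21.5% to 23.2% (log2 ratio 3.27 ± 0.17, edgeR adjusted p = 2.3e-13). Vwa1, an extracellular matrix protein gene, had 2.40, 3.18 and 2.01 CPM in mESCs and 19.3, 20.1 and 23.2 in mOPCs. Its promoter windows went the other way, from 116, 55 and 49 tags to 0, 2 and 3.

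Grin1, which encodes the obligatory subunit of NMDA receptors, had a last-exon cluster in mESCs only as far as counted. It gave 42.5, 42.9 and 44.7 CPM there, and no tag was found in 91692553 pooled mOPC tags. The level was at least 1319-fold higher in mESCs, taking 3 tags over the mOPC libraries as the floor. The Grin1 peak lies only in exons of transcripts without a protein-coding label, as do the peaks of Stard9, Emb and Bcl7c. At Grin1 and Emb it falls between the coding parts of the gene. Zfp773, Stard9 and Pura changed less in level. Stard9, a kinesin-like gene, had 11.4, 12.97 and 14.1 CPM in mESCs and 10.5, 9.61 and 10.4 in mOPCs, while its promoter tags increased, and the exonic share fell from 29.3% to 32.4% to 4.27% to 4.95%. Pura, a nucleic acid binding protein gene, held 5 clusters, and the exonic share of the largest went from 27.5% to 34.9% down to 12.5% to 14.5%. The log2 ratio changes of the 5 ran from -1.86 to 2.50, with 4 called, so the clusters of Pura did not move together. Zfp773, a zinc-finger gene, had exonic shares of 79.5% to 87.6% in mESCs and 66.8% to 74.4% in mOPCs.

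Wdr89 and Emb each had a single position that followed a run of A. Emb encodes embigin, a partner of monocarboxylate transporters. Its cluster gave 19.6, 21.2 and 19.1 CPM in mESCs and 5.11, 7.42 and 6.50 in mOPCs, and its promoter fell along with it. The ratio did not pass the test (log2 0.03 ± 0.14, edgeR adjusted p = 0.88), with exonic shares between 14.8% and 19.4% in all libraries. Its sign turned without mOPC replicate 2 (-0.058) and with promoter tags within 100 bp (-0.080). The Wdr89 cluster gave 40.6, 37.8 and 32.5 CPM in mESCs and 5.34, 4.92 and 5.42 in mOPCs, and its ratio fell by 0.95 ± 0.17 (edgeR adjusted p = 4.9e-05). Whether tags at these positions come from these loci or from near-identical copies elsewhere was not tested.

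Among clusters with at least 30 tags of both cluster and promoter in each line, 5 in each direction had the largest called change of the ratio. Inpp5b, an inositol polyphosphate phosphatase gene, had the largest fall. Its exonic share was 75.9%, 77.8% and 79.1% in mESCs and 9.59%, 7.26% and 7.94% in mOPCs. The cluster lost tags (24.7, 24.1 and 22.6 against 7.75, 4.82 and 5.69 CPM) while the promoter gained them (297, 115 and 110 tags against 1603, 1777 and 2703). The log2 ratio fell by 5.26 ± 0.17 (edgeR adjusted p = 8.7e-17). Notch4, the gene of a Notch receptor, had the largest rise. Its cluster was level between the lines, at 2.59, 3.18 and 3.37 CPM in mESCs and 2.87, 3.23 and 3.30 in mOPCs. Its level change did not pass the test (log2 -0.27 ± 0.18, edgeR adjusted p = 0.16) and turned to 0.079 without TMM. Its promoter fell from 624, 237 and 285 tags to 21, 20 and 24, and the ratio rose by 4.51 ± 0.26 (edgeR adjusted p = 1.2e-12).

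Camta2, Msi2, Bcl7c and Stard9 were the other clusters with a large fall in ratio. Msi2, an RNA-binding protein gene, gave 16.2, 21.4 and 15.2 CPM in its 3′ UTR in mESCs and 1.09, 0.590 and 0.586 in mOPCs, and its log2 ratio fell by 4.07 ± 0.21. All 5 exonic clusters of Msi2 had a lower ratio, between -4.72 and -2.91 on the log2 scale, while the promoter gave 96.2 to 104 CPM in mESCs and 68.9 to 71.7 in mOPCs. Camta2, a transcription activator gene, fell by 4.19 ± 0.26 in ratio, and Bcl7c, which encodes a chromatin remodelling subunit, by 3.38 ± 0.23. Tbp, Btbd19, Map3k11 and Sptbn1 were the others with a large rise. Map3k11, a kinase gene of the JNK pathway, went from exonic shares of 7.76% to 7.90% up to 45.2% to 51.3%, and Btbd19 from 9.45% to 10.7% up to 53.3% to 58.1%. The log2 ratio rose by 3.42 ± 0.21 and 3.51 ± 0.18. Sptbn1, a spectrin of the membrane skeleton, had the same size of shift (3.63 ± 0.30) at exonic shares below 1%, 0.0338% to 0.0488% against 0.402% to 0.578%. The calls of all 10 held with any 1 library left out (edgeR adjusted p of at most 5.1e-08), which covers the spread between libraries only. Camta2, Map3k11, Notch4 and Btbd19 lay only 582, 598, 605 and 611 bp from an annotated 5′ end. The alternative limit of 1000 bp leaves them out. Sptbn1, Map3k11, Camta2, Msi2 and Bcl7c had fewer than 100 cluster tags in a line and passed the tag limit through the other line alone. Their changes and calls are therefore descriptions, and the adjusted p-values add no support for them.

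**Figure D4:**
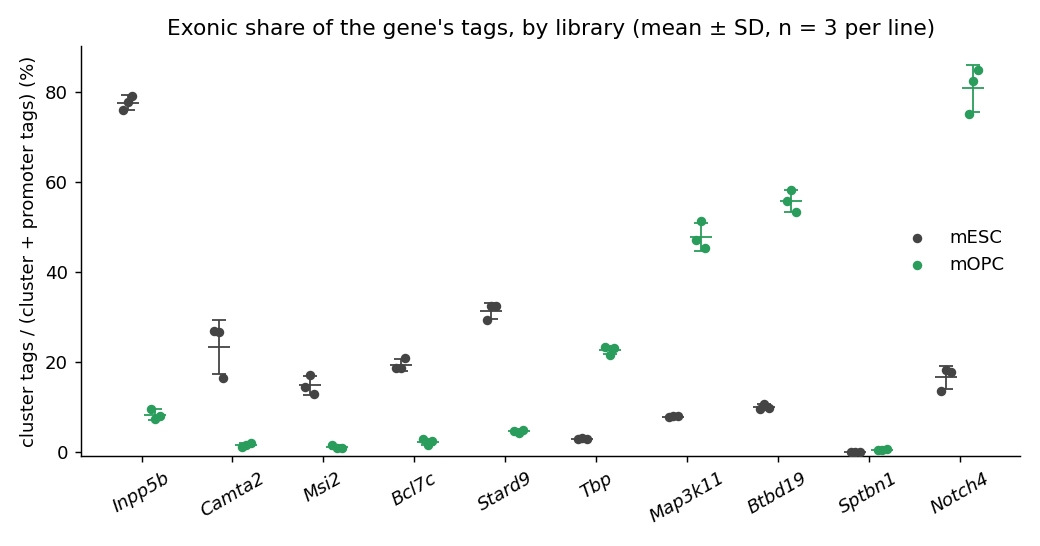
Exonic share of the gene's tags (%) in each library for the 10 clusters with the largest called change of ratio, ordered by that change. Points are libraries (3 per line) with mean ± SD, mESC in black and mOPC in green. Inpp5b falls from 75.9% or more to 9.59% or less, and Notch4 rises from 18.3% or less to as much as 84.9%.

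Of the clusters with at least 1 CPM in 1 line, the 5 with the largest level changes in each direction were at 0 in the other line, apart from Syne1. Each fold is a lower bound with 3 tags over the 3 libraries as the floor. Higher in mOPCs were Sorbs3 (85.4, 75.2 and 90.5 CPM, at least 2055-fold), which encodes the adhesion protein vinexin, and Matn4 (63.2, 59.7 and 62.6, at least 1504-fold), a matrilin of the extracellular matrix. The others were Cers4 (34.0, 29.4 and 29.5, at least 743-fold), a ceramide synthase gene, and Mthfd1l (22.0, 21.7 and 25.8, at least 574-fold), an enzyme of mitochondrial folate metabolism. Syne1, with the 3 mESC tags given above, was the fifth. At Sorbs3 and Cers4 the most-tagged position fell upstream of the exon that the cluster overlaps. Cers4 showed a complete exchange of counted starts, with 1610, 830 and 838 promoter tags and no cluster tags in mESCs, and no promoter tags in mOPCs. Mthfd1l kept its promoter in both lines (2445, 1353 and 1415 tags, and 1850, 2480 and 4025), and the exonic start made up 20.2% to 20.8% of its tags in mOPCs.

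Higher in mESCs, with no tag in mOPCs, were Mdm4 (91.6, 95.6 and 106 CPM, at least 2937-fold), a regulator of p53, and Manba (39.5, 41.1 and 38.4, at least 1209-fold), a lysosomal mannosidase gene. Ildr1 (35.6, 31.5 and 29.7, at least 1014-fold) and Nphs1 (24.5, 24.3 and 27.7, at least 772-fold), the nephrin gene, were further cases beside Grin1. At Mdm4 and Ildr1 the most-tagged position fell upstream of the exon that the cluster overlaps. Mdm4 and Manba kept promoter tags in mOPCs. Mdm4 had 10001, 4847 and 5586 promoter tags in mESCs and 6498, 9136 and 12258 in mOPCs, and the exonic cluster was 24.7% to 25.8% of its tags in mESCs. Manba had an exonic share of 44.5% to 46.8% in mESCs, with 504, 705 and 896 promoter tags left in mOPCs. Ildr1, in contrast, had no promoter tag in mOPCs either, so its ratio has no value there. The Nphs1 ratio rests on 2 promoter tags in mOPC replicate 3 (edgeR adjusted p = 0.0037), and the adjusted p was 1 without that library.

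Of the marker genes examined here, only Olig2 held a cluster. Olig2, a transcription factor that defines the oligodendrocyte lineage, had a cluster in the coding sequence of its last exon with 2.37, 2.01 and 2.91 CPM in mOPCs and none in mESCs. It made up 0.563%, 0.479% and 0.659% of the gene's counted tags there. With 3 promoter tags in all mESC libraries, the ratio could not be told from its error (log2 -4.13 ± 17.03, edgeR adjusted p = 0.91).

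Clusters were not spread evenly over genes. Of the 399 genes, 313 held 1 cluster and 60 held 2 or 3. A further 26 genes held at least 4 clusters and 161 of the 607 clusters between them. Eif3a, which encodes a core subunit of translation initiation factor eIF3, held 15, all with a G at base 1. Summed, they gave 26.2, 29.4 and 21.5 CPM in mESCs and 16.1, 15.1 and 14.4 in mOPCs. The promoter gave 344, 350 and 434 against 118, 138 and 131. On the TMM scale, the log2 level changes of the 15 clusters ran from -2.35 to -0.29. In the ratio test 7 were called, all with a higher ratio in mOPCs.

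Bod1l and Srrm2 held 10 clusters each. All 10 of Bod1l were lower in mOPCs, from -3.69 to -1.65 on the log2 scale, and the promoter was lower too (426, 481 and 470 CPM against 48.0, 48.0 and 47.5). Of the 10 ratios, 8 were called, all with a smaller fall at the cluster than at the promoter. Srrm2, a spliceosome-associated protein gene, had changes from -3.57 to 3.53 with all 10 ratios called, so its clusters did not move together. Ncl, the gene of the nucleolar protein nucleolin, held 8 clusters with the highest summed level of this kind, 125, 114 and 123 CPM in mESCs and 24.2, 24.3 and 23.5 in mOPCs. Their changes lay between -3.01 and -1.86, and 2 of 8 ratios were called. Tet1, a 5-methylcytosine dioxygenase that is high in pluripotent cells, held 8, with 7 at a G. All 8 summed to 21.01, 21.8 and 17.0 CPM in mESCs and 1.41, 0.832 and 1.03 in mOPCs. The Tet1 cluster with the pair had 156 tags in mESCs and none in mOPCs, at least 65.3-fold lower with 3 tags as the floor. The other 7 had log2 changes of -5.19 to -3.18.

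Nucks1, a nuclear phosphoprotein gene, held 8 clusters, each with a fitted fall larger than that of the promoter. Their sum went from 33.1, 31.1 and 23.4 CPM to 0.684, 0.416 and 0.660, and 5 of 8 ratios were called lower. With so few mOPC tags, these clusters reached the tag limit almost wholly through mESCs. That favours a fall against the promoter, so the falls and calls are descriptions. A cluster with no mOPC tag was at least 44.0-fold lower in level, and the fitted ratio changes of the other 7 ran from -1.79 to -0.76. Slc5a6, a vitamin transporter gene, held 7 clusters in mOPCs only as far as counted, 32.3, 23.0 and 23.8 CPM in sum. Its promoter windows were at 8765, 7418 and 7730 CPM in mOPCs and 8.41 to 10.7 in mESCs. No Slc5a6 ratio was called, and the mESC libraries hold no tags of these clusters.

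**Figure D5:**
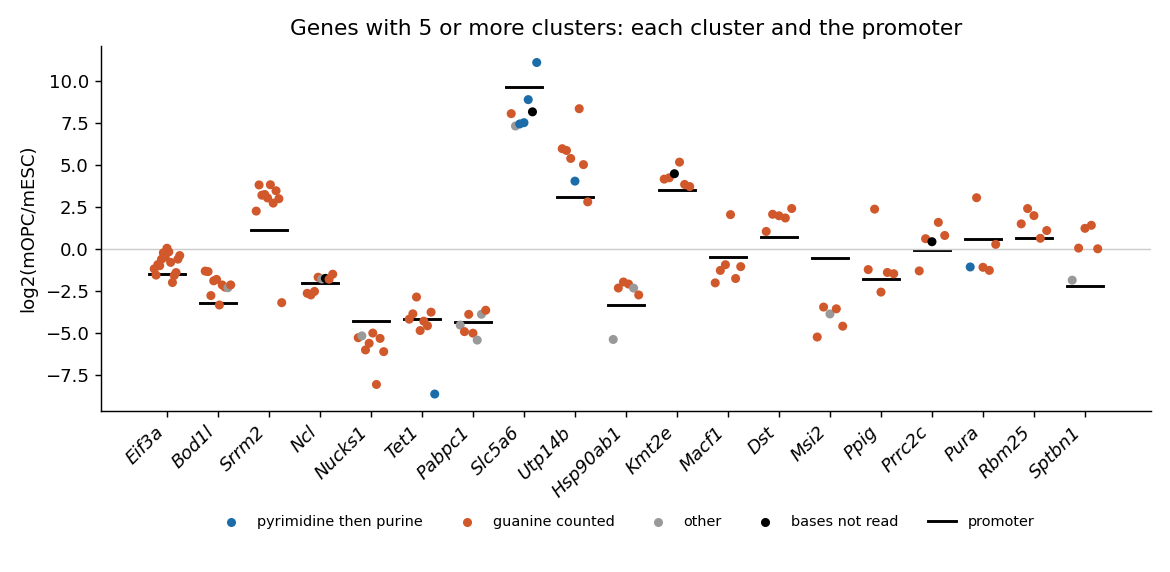
Log2 ratio of pooled tags, mOPC over mESC, for each cluster (points) of the 19 genes with 5 or more exonic clusters and for the gene's promoter (black bar), coloured by the bases at the most-tagged position. Most Eif3a clusters sit above their promoter, and those of Msi2 lie well below theirs. The Tet1 cluster with the pair, at 0 in mOPCs, sits below the other 7 (0.5 tags were added to each sum). Plotted values are without TMM normalization. Leaving it out shifts log2 level changes towards mOPCs by a median of 0.34.

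Host genes were also grouped by lists of highly expressed gene classes, to be read beside the 45.4% higher and 44.7% lower of all clusters. Of the 20 clusters in translation factor genes, 17 were lower in mOPCs and none higher, but 15 belong to Eif3a. Their median log2 level change was -1.30, against 0.03 over all clusters. All 8 clusters in chaperone genes were lower, 6 of them in Hsp90ab1, where their sum went from 12.03, 14.5 and 10.4 to 2.83, 2.22 and 2.15 CPM. The ratio was called higher at 10 of 20 and 6 of 8 clusters of these lists and lower at none, beside 42.5% and 29.1% of all clusters tested. The RNA-binding protein list held 45 clusters in 15 genes, with 21 higher and 19 lower in level. Of 11 clusters in chromatin regulator genes, 8 were higher and 3 lower, and 6 were in Kmt2e. The ribosomal protein list held 3 clusters (1 lower, none higher), the cytoskeleton list 2 (both lower) and the glycolysis list none, although its genes were searched as the others were.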

How the data were processed

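CAGE was measured on nuclear RNA by random-primed, cap-trapped libraries with EcoP15I tags. According to the methods of the study, the authors sorted reads by barcode, discarded those with ambiguous bases, cut off linkers, and aligned tags uniquely to mm10. The submitters' processing notes also list CASAVA 1.8 and BWA 0.5.9, with no role given. The deposited values are counts of tags by the position and strand of the 5′ end, without normalization. A tag whose added G was aligned is counted a base upstream of the start, and an offset of positions would look alike.

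Python 3.11.15 with numpy 2.4.6, pandas 2.3.3, scipy 1.17.1 and matplotlib 3.10.9 was used. Exons and transcript sequences came from GENCODE vM21, of the same genome build, and gene starts and promoter letters from RefSeq (GRCm38.p6). No genome was used, so letters of intronic clusters and of 44 exonic clusters were not read. Levels were tested over 31147 clusters with R 4.3.3 and edgeR 4.0.16 (quasi-likelihood, TMM, adjusted p under 0.05), as was the ratio over 2097 clusters, with 6 library terms, the kind of count and its interaction with the line over 12 columns. Scripts were tested on simulated data. DESeq2 1.42.0 was an alternative. Other alternatives changed the tag limits, distances, promoter windows and libraries. Per-library values were tested by exact permutation. Intervals and floors cover counting error only. The study uses biological replicate for batches of cells of different passage, stated for another assay and not for CAGE, so p-values measure the spread between libraries, which may be technical.

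Clusters named were the 8 with most tags in internal and in last exons, the 5 largest called changes of ratio and of level in each direction, up to 10 with more cluster than promoter tags, host genes among the markers, and those at the tag limit. Genes with many clusters were named after their values were seen. The clusters, lists and rules were chosen with earlier results of these data known. The pyrimidine-purine pair was first defined over the base before the counted position and that position. It was redefined as the counted and the next base after the promoter clusters had been read. Sequences are given for 20 clusters of the first rules, and those of other named clusters are not reported here.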

Additional observations from a re-analysis of the deposited data

How the results depend on the processing

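The counts of clusters that differed between the lines stayed within 1.5 times under DESeq2, no TMM, filterByExpr, each library left out and the limit of 1000 bp. They moved only where fewer clusters were left to count. With a limit of 300 tags, 171 clusters remained, 64 higher and 95 lower in mOPCs, and with positions of 60 tags, 156 were higher and 208 lower. Leaving out a library gave 230 to 236 higher and 306 to 317 lower clusters, and 194 to 215 higher and 144 to 156 lower ratios. With the replicate number as a block, 233 clusters were higher and 317 lower, and 206 ratios were higher and 151 lower. The deviations of same-numbered libraries correlated at 0.12, 0.13 and 0.07, and those of differently numbered libraries at -0.21 to 0.10. These values do not settle whether the numbers pair the samples. The median exonic share rose from 0.438% to 0.529% in mESCs and from 0.505% to 0.583% in mOPCs with promoter tags within 100 bp, which are fewer. The pyrimidine-purine share was 6.41% over the base before the counted position and that position, 15.4% when all positions were weighted by tags, and 35.7% over the counted and the next base, an alternative chosen after seeing the data. The difference between the lines in the part of exonic tags held by the pair was 13.9 percentage points without Foxp1 and 8.65 without the Syne1 gene as well, another alternative chosen after seeing the data. Of the tests on named clusters under all alternatives, 402 of 406 on level and 335 of 341 on ratio kept their direction and side of the threshold. Those that turned were Notch4 (0.079 without TMM), Psmc2 (-0.010 to 0.16 with a library left out, lowest without mESC replicate 3) and Foxp1 (-8.33 to 4.19, highest without mESC replicate 1) in level, and Emb in ratio (-0.058 to 0.14, lowest without mOPC replicate 2, and -0.080 with the 100 bp window). None of these had been called. The Olig2 ratio was called by DESeq2 (-5.24), and the Foxp1 ratio under the block (-3.12) and without mESC replicate 1 (-1.91). The cause was not tested. A cluster of median size holds 29.5 tags per library, so changes near the threshold rest on few tags.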

Other observations

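A further 130 clusters met the same limits on tags and distance but lay in first or single exons only, and they were left out of the comparisons above. They had a median width of 17.5 bp and a median exonic share of 9.27%, close to the values of the exonic clusters with the pyrimidine-purine pair. Of these, 71 were higher in mOPCs and 48 lower, with a median log2 change of 1.30. Of the 607 exonic clusters, 34 lay in 5′ UTR sequence, with a median exonic share of 11.98% and a median width of 22.5 bp. The 112 in 3′ UTR sequence had medians of 0.785% and 2 bp, and the 387 in coding sequence 0.714% and 4 bp. No test was made of these differences, and 36 clusters overlapped only exons of transcripts without a protein-coding label.

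Clusters high in the same replicate number of both lines were few. In replicate 1 there were 5 that exceeded the other replicates more than 3-fold in both lines, in replicate 2 there were 4 (2 of them in exons), and in replicate 3 there was 1. Foxp1 was the only one of replicate 1 in an exon.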
